A study of Mus musculus with 14 samples.

Results

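The major urinary proteins (Mup) are small secreted lipocalins, barrel-shaped carriers of volatile pheromones. They are made mainly by the hepatocytes of the mouse, pass from blood into urine, and mark the individual, the sex and the status of the animal that leaves the scent. Their transcription in liver is known to depend on growth hormone, whose pulses are male-like or female-like after puberty. The genes lie side by side in one cluster and their transcripts are near identical, so a probe named for one Mup gene can also bind the transcripts of its paralogs.

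Liver RNA came from male and female crl:CD1 mice aged 3, 4 or 8 wk (M3, F3, M4, F4, M8, F8). The mice carried no engineered allele and received no treatment, and each group was 2 pools, of 5 mice at 3 wk and of 6 mice at 4 and 8 wk. Two-colour arrays set male against female liver at each age (M3/F3, M4/F4, M8/F8) and adult against younger liver within each sex (M8/M3, M8/M4, F8/F3, F8/F4). Each of these 7 comparisons had 2 arrays, made from separate pools with the dyes exchanged. Because an outbred stock was pooled, values for single animals were not measured. The pools of a group were used in several comparisons, so comparisons that share a group are not independent.

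The members were chosen through the RefSeq accession of each probe. Of the 8 genes Mup1, Mup2, Mup3, Mup4, Mup5, Mup6, Mup20 and Mup21, 7 had a probe by this rule, with 9 probes in all among the 39429 probes of the array, which named 19751 genes in this way. Mup4 and Mup20 had 2 probes each, the others 1, and no probe was found for Mup1. Each probe had a single spot, and its signal was well above background, the scanner software's condition for a real signal, in all 28 channels. Mup19 was the only other Mup gene named this way, with 2 probes.

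RefSeq (GRCm38.p6) orders the cluster on chromosome 4 as Mup4, Mup6, Mup7 and Mup2 on one end and Mup5, Mup20, Mup3 and Mup21 on the other, with Mup1 and the remaining family members between them and no other protein-coding gene inside. Promoter windows were held for 5 of the 8 members. The 80 bases before the shared TATATAA box and the box itself are shown to make visible how close the members are in the region next to the start of transcription. Each is read 5′ to 3′ on the gene's own strand, with TATATAA in capitals.

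Mup4, chr4:59960690-59960776, minus strand: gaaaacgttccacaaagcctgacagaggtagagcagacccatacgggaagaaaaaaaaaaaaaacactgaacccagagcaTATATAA
Mup6, chr4:60003372-60003458, plus strand: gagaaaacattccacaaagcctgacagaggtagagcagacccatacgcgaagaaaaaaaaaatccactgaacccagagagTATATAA
Mup2, chr4:60139877-60139963, minus strand: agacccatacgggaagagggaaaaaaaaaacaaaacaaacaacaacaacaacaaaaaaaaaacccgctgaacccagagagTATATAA
Mup3, chr4:62087322-62087408, minus strand: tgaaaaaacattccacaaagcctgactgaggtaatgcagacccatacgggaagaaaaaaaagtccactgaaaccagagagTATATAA
Mup21, chr4:62150843-62150929, minus strand: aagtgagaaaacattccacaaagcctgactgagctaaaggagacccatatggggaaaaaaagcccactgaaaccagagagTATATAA

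Over the last 30 bases, which include the box, any 2 of these 5 members shared 24 to 29 bases. Over the whole 87 bases, aligned with gaps, identity ran from 59.0% between Mup2 and Mup21 to 89.9% between Mup3 and Mup6. Mup2 was the least like the others, at 59.0% to 65.9%, and its window held a longer run of adenines and cytosines before the box. The TATATAA box, searched on both strands, was in all 5 member windows and in 13 of the 14 Mup windows held, against 3.24% of the 32851 promoter windows of RefSeq, each of which reached from 250 bases before to 50 bases after a start. The canonical TATAAA, which overlaps that box when an A follows it, was in Mup4 and Mup6 only and in 13.6% of all windows. TTCNNNGAA, the core that STAT5 binds, was in none of the 14 Mup windows and in 8.30% of all. CAAAGTCCA, a form of the HNF4 site, and TGTTTAC, a forkhead site, were likewise in none, against 0.475% and 3.65% of all windows.

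Spot signal of most of the 9 probes was among the highest of the array in the channels where it was high, although it does not rank transcript levels between probes. In their lowest channels the 8 brighter probes ranked 1196 to 5010. Mup2 ranked as high as 3 among all probes by processed signal in its best channel, Mup20 (A_55_P2063654) 5, Mup4 (A_55_P2010093) 6 and Mup3 7. Raw red signal of Mup2 reached 97.5% of the saturation value stated for the array, and it was at or above 90% on 3 arrays. The highest raw signal was 88.0% of saturation for Mup20 (A_55_P2063654), 87.4% for Mup4 (A_55_P2010093), 76.9% for Mup3, 71.7% for Mup5, 66.8% for Mup20 (A_55_P2051486), 57.0% for Mup21 and 39.6% for Mup6. In the green channel none of the 9 probes passed 60.4%. The other Mup4 probe, A_55_P2007816, was dim, with a raw signal of 438 to 8400, at most 1.36% of saturation. The software marked no spot as saturated. Even so, the raw red median of the Mup19 probe A_55_P1974080 was at or above the stated saturation value on 6 of 14 arrays.

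**Figure D1:**
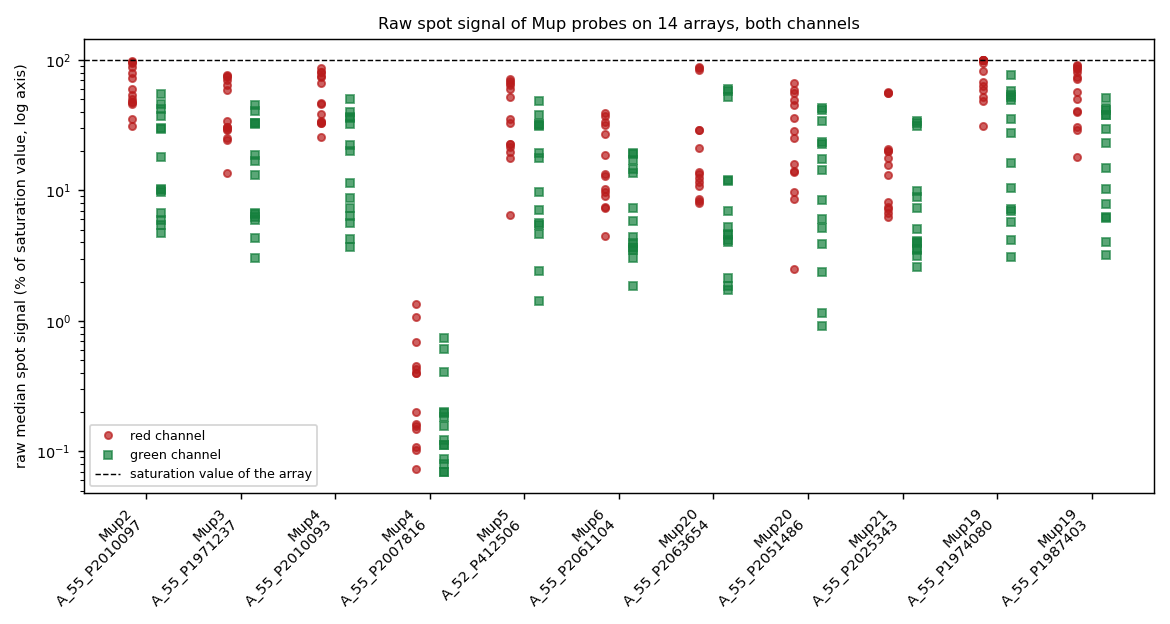
Raw median spot signal of the 9 Mup member probes and the 2 Mup19 probes on 14 arrays, as percent of each array's saturation value on a log axis, with red-channel values as circles and green-channel values as squares. The Mup19 probe A_55_P1974080 touches the dashed saturation line, Mup2 reaches 97.5% of it, and the dim Mup4 probe A_55_P2007816 stays at or below 1.36%.

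Adult male liver had more signal than adult female liver for every Mup probe. In M8/F8, 9 of 9 probes were called higher in males, where 1.66% of all probes were, and the median log2 ratio was 2.25 against 0.00 for all probes. Calls needed an adjusted p (Benjamini-Hochberg, limma) below 0.05, an expression ratio beyond 1.5 or 0.667, and a signal well above background on both arrays in at least 1 group. Both arrays of M8/F8 showed male excess for all 9 probes, with log2 ratios of 1.77 to 4.75 on array 1 and of 0.84 to 3.54 on array 2, and array 1 gave the higher value for each of the 9.

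Mup20, which encodes darcin, the male urinary protein that attracts females, had the largest sex difference. Its probe A_55_P2063654 gave log2 ratios of 4.75 and 3.54 on the 2 arrays of M8/F8, a mean ratio of 17.7 (log2 4.14, SE 0.24, limma adjusted p = 0.000211). The second Mup20 probe, A_55_P2051486, gave 3.76 and 3.31, a mean ratio of 11.6 (log2 3.54, SE 0.36, limma adjusted p = 0.00139). Both probes lay above every other member on both arrays.

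Mup21, the member at the far end of the cluster, gave log2 ratios of 2.82 and 2.42, a 6.16-fold difference (SE 0.21, limma adjusted p = 0.000594). Mup5 gave 2.44 and 2.18, a 4.96-fold difference. Mup3 gave 2.38 and 2.11, a 4.75-fold difference. The SD of the 2 arrays was 0.29, 0.18 and 0.19 on the log2 scale for these 3 genes, less than their distance from 0.

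The genes at the opposite end of the cluster had smaller ratios. Mup4 gave log2 ratios of 2.27 and 1.66 with its bright probe and 2.13 and 1.55 with its dim probe, 3.91-fold and 3.59-fold in the mean. Mup6 gave 1.88 and 1.83, a 3.62-fold difference with the closest pair of arrays. Mup2 had the smallest ratio, with log2 values of 1.77 and 0.84, 2.47-fold in the mean (limma adjusted p = 0.0417). This Mup2 call is the weakest of the 9, since limma lost it with no dye term (adjusted p = 0.178), with the slide as a block (0.0597), with median centring (0.102) and without M8/F8 array 1 (0.195) or array 2 (0.179). The Mup5 call was lost without M8/F8 array 2 (limma adjusted p = 0.0685).

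**Figure D2:**
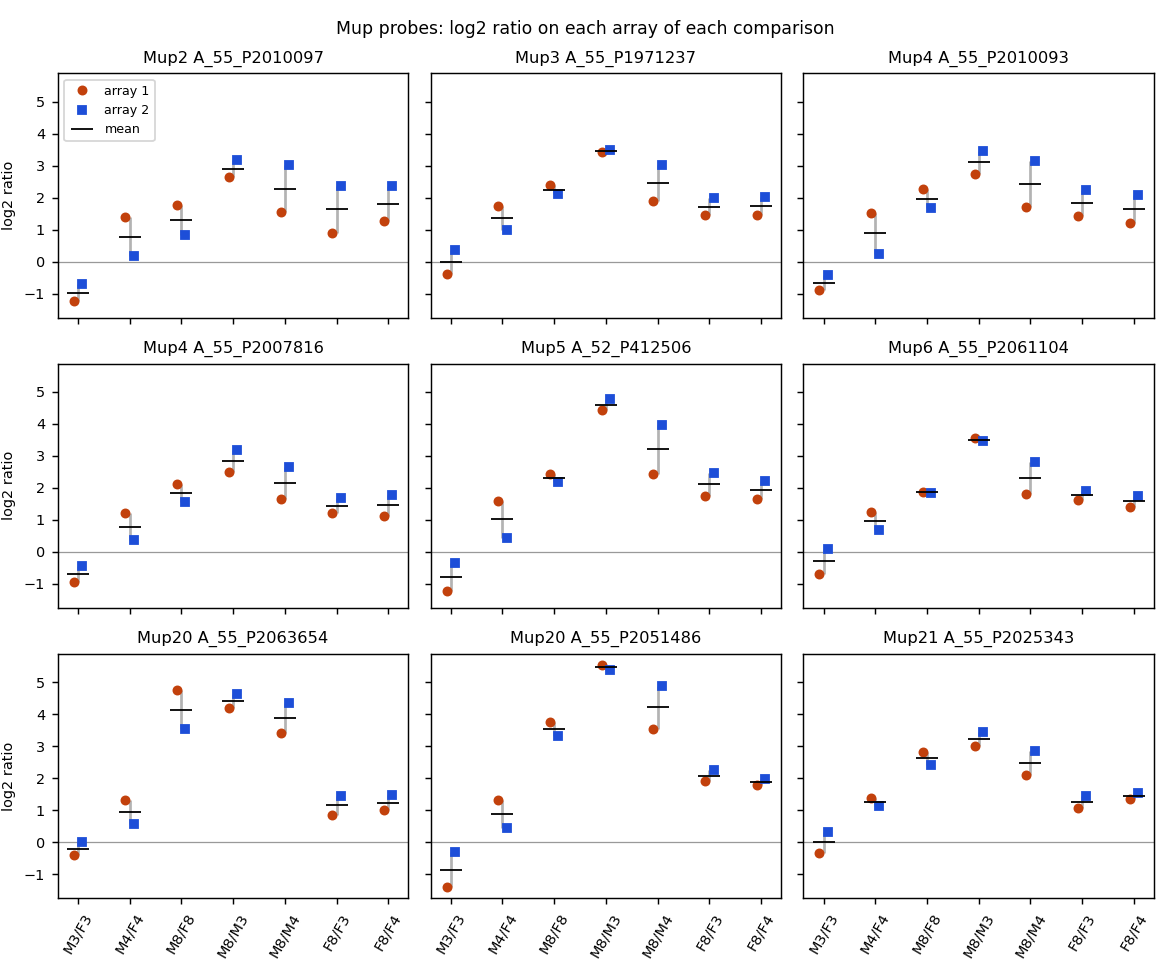
log2 ratio of each of the 9 Mup probes on array 1 (circles) and array 2 (squares) of the 7 comparisons, with the mean as a bar and a line joining the arrays. All M8/F8 and all age comparisons lie above 0 on both arrays for every probe, whereas M3/F3 lies below 0 on array 1 for all 9.

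Fewer Mup probes were called at 4 wk. In M4/F4, 3 of 9 probes were called higher in males (0.309% of all probes were): Mup3 with log2 ratios of 1.75 and 0.98 (adjusted p = 0.0205), Mup21 with 1.38 and 1.13 (adjusted p = 0.00926), and Mup20 (A_55_P2063654) with 1.31 and 0.58 (adjusted p = 0.0428, all by limma). The remaining 6 probes were also above 0 on both arrays, with mean log2 ratios of 0.78 to 1.02 and adjusted p from 0.0581 to 0.187. Array 1 lay above array 2 for all 9, with medians of 1.38 and 0.45. Leaving out either M4/F4 array removed all 3 calls, adjusting p within the comparison also left 0, shared pools in the covariance left 1, and the replicate block ended the Mup20 call (limma adjusted p = 0.0651). A fit of 6 group means called 6, and leaving out either M3/F3 array gave 8.

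At 3 wk no Mup probe was called in either direction in M3/F3, in which 0.266% of all probes were. Mean log2 ratios were between -0.97 for Mup2 and -0.01 for Mup3 and Mup21. Of the 9 probes, 3 had an unadjusted p below 0.05, and limma's lowest adjusted p was 0.105. All 9 probes were below 0 on array 1 (-1.41 to -0.35), and 6 were on array 2 (-0.71 to 0.37). With deposited errors as weights and an unadjusted p under 0.0001, 5 probes were called lower in males, and so were 5 by limma without the second M3/F3 array. Without the first, 6 of 9 probes were above 0 and none was called.

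The sign of the 3 wk difference depended on which arrays measured it. The ratio M3/F3 is also given by 3 other arrays of the same pool number, as M8/F8 minus M8/M3 plus F8/F3 on the log2 scale. Within a pool set both routes carry the dye term once and with the same sign, so it cancels in direct minus implied, and it cancels in either route's mean over both sets. In that mean all 9 probes were below 0 directly and 8 of 9 were above 0 by the implied route (-0.18 for Mup5 to 0.88). By set, the implied value was above 0 for 7 of 9 probes in set 1 and 8 of 9 in set 2, and for 5 and 9 after the dye term was taken out. For set 1 direct minus implied was -1.82 to -0.65 (median -1.25), where the SD of this gap was 0.16 over 21650 bright probes (well above background in at least 1 channel of every array and in both arrays for 1 group of each comparison) and 0.27 over the 209 brightest non-Mup probes. For set 2 the gap was -0.88 to -0.10. Of the 21650 bright probes, 47 in set 1 and 56 in set 2 had a gap beyond 1 on the log2 scale. Genes with other names had gaps as large, with -3.09 for Sult3a2, -2.48 for Cyp2b13 and -1.97 for Pax2. A bright probe without a gene name, A_55_P2076196, had -1.82. Non-Mup here is by gene name, and whether unnamed probes bind Mup transcripts was not tested. For the dim Mup4 probe, at most 1.36% of saturation, direct M3/F3 averaged -0.69 and implied M3/F3 averaged 0.45. Its processed signals on the M3/F3 arrays were low, at 31.8 to 84.2, which limits its direct ratio. The part of saturation in these gaps was not tested. At 4 wk the route through M8/M4 and F8/F4 left smaller gaps, with medians of -0.26 and -0.06, and all 9 probes were above 0 by both routes in both sets.

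**Figure D3:**
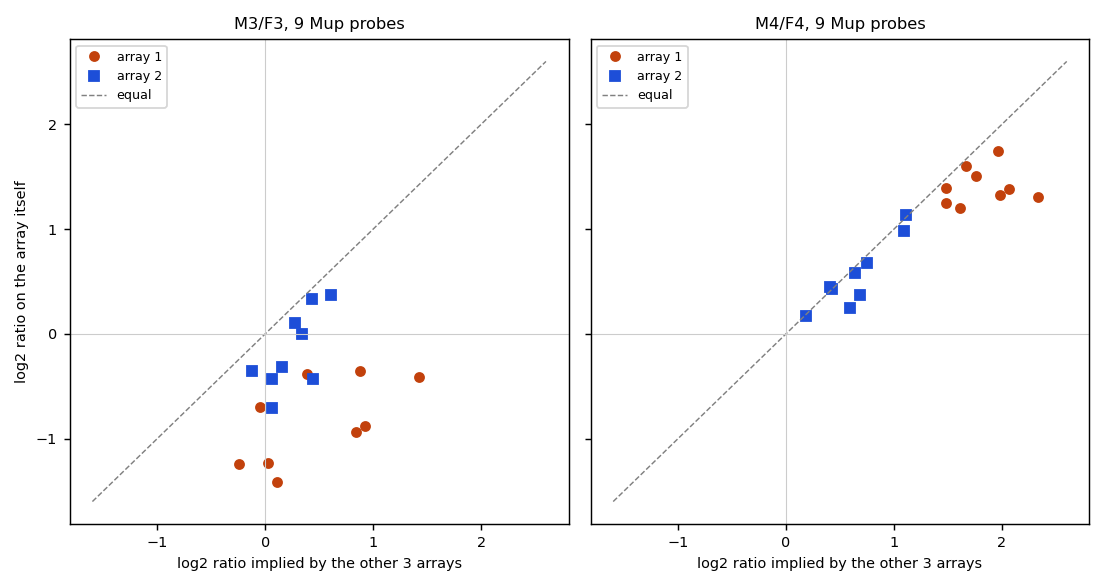
Male over female log2 ratio of 9 Mup probes at 3 wk (left) and 4 wk (right), measured on the array itself (vertical axis) against the value implied by the other 3 arrays of the same pool number (horizontal axis), with circles for array 1, squares for array 2 and a dashed line of equality. At 3 wk all points lie below the line, with direct minus implied values of -1.82 to -0.10, and at 4 wk the values are -1.01 to 0.05.

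Mup signal rose with age in both sexes. In M8/M3, 9 of 9 probes were called higher at 8 wk (5.29% of all probes were), with a median log2 ratio of 3.47. In F8/F3 9 of 9 were called higher (3.51% of all), with a median of 1.72. From 4 to 8 wk, 9 of 9 were called higher in males (3.12% of all) and 9 of 9 in females (1.63% of all), with medians of 2.46 and 1.64. All 9 probes were above 0 on both arrays of each of these 4 comparisons.

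The female calls rested on both arrays. With either F8/F3 array left out, 0 or 1 of 9 probes was called in F8/F3, and with either F8/F4 array left out, 1 of 9 was called in F8/F4. The log2 ratios of the probes that lost the call stayed at 1.14 to 2.22 in F8/F3 and at 1.17 to 1.97 in F8/F4, against 1.15 to 2.11 and 1.23 to 1.94 for all 9 with every array. The male calls did not, since 9 of 9 stayed called in M8/M3 and 8 or 9 in M8/M4 with any 1 array left out. With every array kept, other settings ended a female call of Mup2, both Mup4 probes, Mup20 (A_55_P2063654) and Mup21. For that Mup20 probe in F8/F3 these were no dye term (limma adjusted p = 0.0827), slide as a block (0.065), shared pools in the covariance (0.242) and median centring (0.11).

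In males from 3 to 8 wk, Mup20 rose most with one of its probes, and Mup5 lay between the Mup20 probes. Mup20 probe A_55_P2051486 gave log2 ratios of 5.54 and 5.39 in M8/M3, 44.2-fold in the mean (SE 0.36, limma adjusted p = 0.000317), and A_55_P2063654 gave 4.20 and 4.63, 21.3-fold (adjusted p = 0.000178). The 2 probes of this 1 gene thus differed by more than their arrays did. Mup5, which sits next to Mup20 in the cluster, gave 4.43 and 4.77, 24.3-fold. Mup6, Mup3, Mup21, both Mup4 probes and Mup2 followed, at 11.4-fold, 11.1-fold, 9.38-fold, 8.62-fold and 7.13-fold, and 7.47-fold.

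In females over the same ages the order was another. Mup5 gave log2 ratios of 1.75 and 2.47 in F8/F3, 4.33-fold, and Mup20 (A_55_P2051486) 1.90 and 2.24, 4.20-fold. The other Mup20 probe rose least of all 9, with 0.86 and 1.43, 2.21-fold (limma adjusted p = 0.0212), and Mup21 rose 2.40-fold. Mup4, Mup6, Mup3 and Mup2 rose 2.72-fold to 3.54-fold.

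The difference between the sexes in this rise was tested by subtracting F8/F3 from M8/M3. The M8/M3 arrays were scanned on day 1 and the F8/F3 arrays on day 2, on other slides. Sex therefore cannot be told apart from scan day and slide in this difference. The M8/F8 and M3/F3 arrays were all scanned on day 1. The difference was called for 4 of 9 probes, all with the larger rise in males (1.12% of all probes were called so). Male exceeded female rise by 9.60-fold for Mup20 with A_55_P2063654 (log2 3.26, SE 0.34, limma adjusted p = 0.00609), 10.5-fold with A_55_P2051486 (adjusted p = 0.0178), 5.61-fold for Mup5 (adjusted p = 0.0493) and 3.92-fold for Mup21 (adjusted p = 0.0181). For the other 5 probes the excess was 2.40-fold to 3.37-fold, above 0 in both pool sets, with adjusted p of 0.0563 to 0.209. The sex arrays give the same difference as M8/F8 minus M3/F3, and by that route it was larger, at log2 4.35 and 4.40 for the Mup20 probes in the same order, 3.11 for Mup5 and 2.64 for Mup21, against 3.26, 3.40, 2.49 and 1.97. For the other 5 probes it was 2.15 to 2.62. When the covariance between arrays that share a pool was included, 0 of 9 remained called, with adjusted p = 0.0777 and 0.0595 for the Mup20 probes. With 6 group means in place of 7 comparisons, all 9 were called. Without any one array of M8/M3 or F8/F3, 1 of 9 was called, and without either M3/F3 array, 8 were.

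From 4 to 8 wk the excess was called for 1 of 9 probes (0.548% of all), Mup20 with A_55_P2063654, at 6.33-fold (log2 2.66, SE 0.34, limma adjusted p = 0.0204), with 2.43 and 2.90 in the pool sets. The second Mup20 probe gave 5.07-fold with 1.78 and 2.91 in the sets (adjusted p = 0.0953). The other 7 probes had an excess of 1.39-fold to 2.40-fold. The Mup20 call was lost with no dye term (adjusted p = 0.0615), with the slide as a block (0.0742), with shared pools in the covariance (0.240) and without any one array of M8/M4 or F8/F4. Without either M3/F3 array, 2 probes were called.

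**Figure D4:**
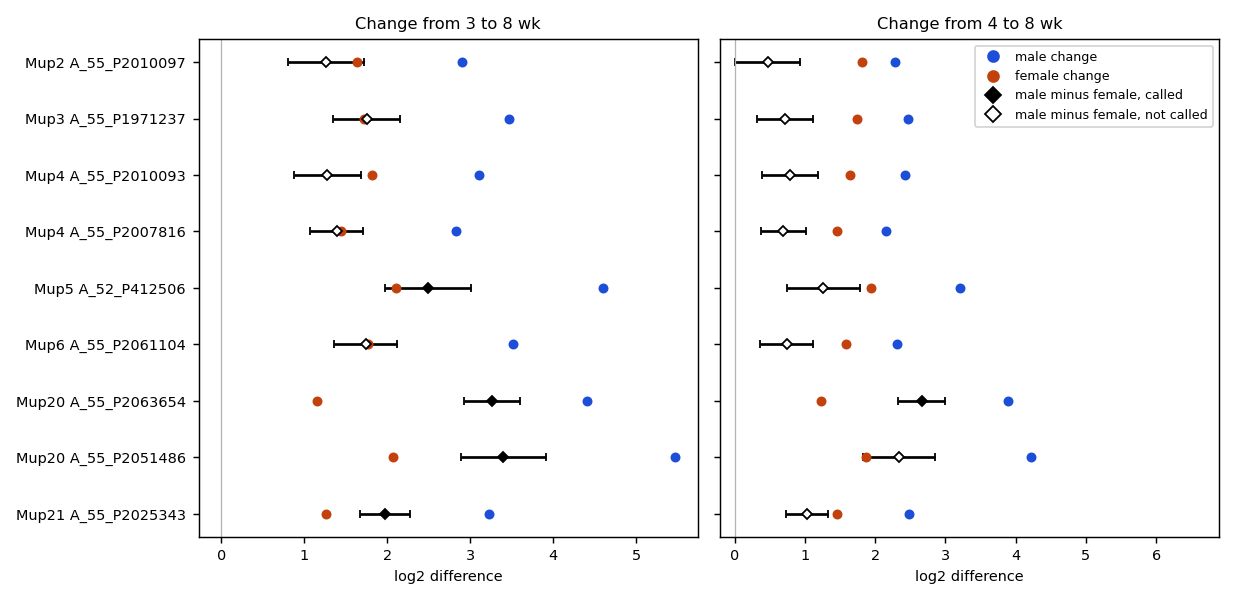
log2 change of each Mup probe from 3 to 8 wk (left) and from 4 to 8 wk (right) in males and females (circles) and the male minus female difference with its standard error (diamonds, filled where called). The 2 Mup20 probes stand farthest to the right, at differences of 3.26 and 3.40 from 3 to 8 wk.

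Levels of each probe in the 12 pools were placed on one log2 scale, centred on 0 over the 6 groups of a pool set, by solving the 7 arrays of the set together after removal of the dye term. These are relative levels of a single probe and cannot be set against another probe's. M8 was highest for all 9 probes in both pool sets, and F8 was next in the mean for all 9. For Mup20 (A_55_P2063654) the M8 pools were at 3.66 and 3.72, the F8 pools only at -0.18 and -0.08, and the M4 pools at -0.41 and -0.13, so M4 and F8 overlapped. For its second probe F8 stood at 0.63 and 0.64, above both M4 pools (-0.69 and 0.05). For Mup2 the gap between the sexes at 8 wk was narrower, with M8 at 1.88 and 2.08 and F8 at 0.83 and 0.96.

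M4 came after F8 for all 9 probes, above the 3 remaining groups in the mean. The order of M3, F3 and F4 changed between probes. In the mean of the pools M3 was the lowest group for Mup2, both Mup4 probes, Mup5, Mup6 and Mup20 (A_55_P2051486), but it was lowest in both pool sets only for Mup5 and Mup20 (A_55_P2051486). F4 was lowest in the mean for Mup3, and in both sets for Mup21 and Mup20 (A_55_P2063654). The arrays of set 1 departed from these levels by a root mean square of 0.12 to 0.36 per probe, and those of set 2 by 0.02 to 0.17. The levels of M3 and F3 rest in part on the M3/F3 arrays, whose ratios lay below those implied by the other arrays. For Mup3, Mup6 and the bright Mup4 probe these 3 groups overlapped as neighbours throughout.

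**Figure D5:**
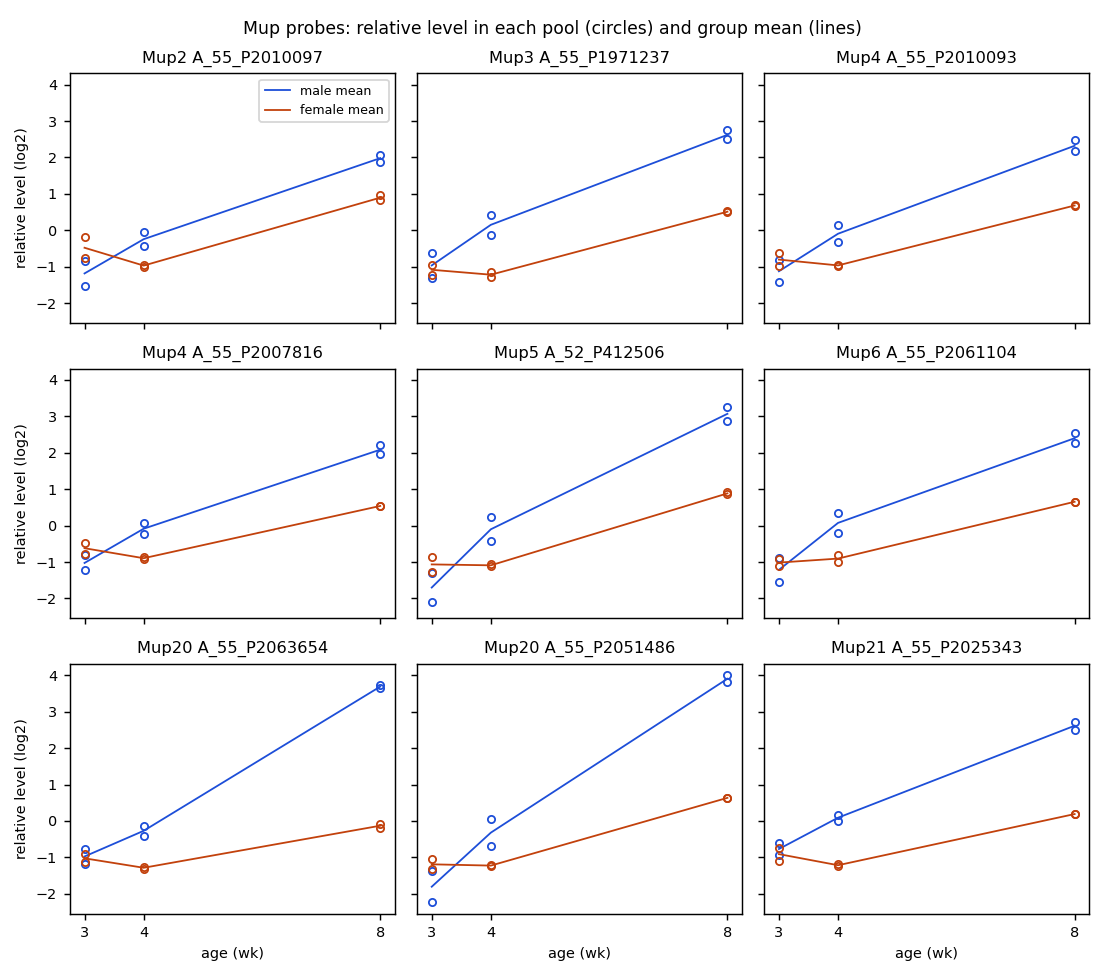
Relative level (log2, centred on 0 over 6 groups) of 9 Mup probes at 3, 4 and 8 wk in male and female liver, with a circle for each of 2 pools and lines through group means. M8 is the highest group in every panel, and F8 of Mup20 (A_55_P2063654) stays near M4.

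The step from 3 to 4 wk was not hybridized directly. The difference of M8/M3 and M8/M4 implied a male rise for all 9 probes in both pool sets, with mean log2 values of 0.52 for Mup20 (A_55_P2063654) to 1.40 for Mup5. It was 0.77 to 2.01 in set 1 and 0.15 to 0.79 in set 2. The same step in females had means of -0.19 for Mup21 to 0.20 for Mup6, with both sets above 0 for 4 of 9 probes. This male and female difference was not tested.

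The signal of one group depended on which group shared its array. F8 pool 1, labelled green both times, gave a processed signal of 9640 for Mup20 (A_55_P2051486) when hybridized with M8 and 149000 when hybridized with F3, 15.4-fold less with M8. F8 pool 2, in red, gave 17100 and 123000. For the 9 probes this difference, relative to the median bright probe, was -3.60 to -0.68 on the log2 scale in pool 1 (median -2.40) and -2.22 to 0.17 in pool 2, with an SD over the 209 brightest non-Mup probes of 0.55 and 0.28. M8/F8 and F8/F3 were also scanned on different days, which cannot be told apart from the partner here. M3 was measured against both partners on a single scan day, and its Mup20 (A_55_P2051486) signal was 5470 with M8 and 24500 with F3 in pool 1, and 4400 and 30900 in pool 2. Relative to the median bright probe, M3 signal was lower with M8 for 6 of 9 probes in pool 1 (-2.51 to 2.96, median -0.41) and for 8 of 9 in pool 2 (-3.45 to 1.75, median -1.20). By that measure it was higher with M8 in pool 1 for Mup20 (A_55_P2063654), with signals of 20200 and 13300, and for Mup21, with 24300 and 12400. For the dim Mup4 probe it was higher with M8 in both pools, at 316 with M8 and 31.8 with F3 in pool 1, and at 328 and 62.4 in pool 2. Processed signals were therefore not compared between arrays, and the ratios within arrays carry the results above.

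The dye term was above 0, with red over green, for all 9 probes. It was 0.09 for Mup6 and up to 0.44 for Mup2 on the log2 scale. Exchange of the dyes cancels it in a mean over both arrays.

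The 9 probes moved together over the 14 arrays, which they share along with the pools and dyes. Pearson's r between pairs was 0.745 to 0.994 over 36 pairs (median 0.956). The 2 Mup4 probes, although far apart in brightness, had r = 0.993 and a root mean square difference of 0.26 on the log2 scale. Mup5 and Mup6 had r = 0.994, but a difference of 0.65. The lowest r was that of Mup2 and Mup20 (A_55_P2063654), and the largest root mean square difference that of Mup2 and Mup20 (A_55_P2051486), at 1.53. The 2 Mup20 probes had r = 0.941 and a difference of 0.73, larger than that of Mup3 and Mup21 (0.31), which are separate genes. The Mup19 probes were within 0.21 and 0.26 of the bright Mup4 probe, with r = 0.994 for each, but the probe at 0.26, A_55_P1974080, is the one whose red signal was at or above saturation on 6 arrays, and both measures for it rest in part on those arrays. How much of any signal came from paralogs was not measured.

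Among 13020 non-Mup genes whose brightest probe was well above background in at least 1 channel of every array, those whose 14 ratios were nearest to the mean Mup profile were Sncg, which encodes gamma-synuclein (root mean square difference 0.44, r = 0.955), Cryaa (0.47, r = 0.978), Rhox2e (0.49), Cyp7b1 (0.55) and Gm5591 (0.57). Cryaa, a lens crystallin, had a log2 ratio of 2.48 for M8/F8 and one of 4.49 for M8/M3. It was the nearest gene to Mup5 (0.30, r = 0.984) and to Mup20 (0.81). Cyp7b1, the oxysterol hydroxylase of male-biased liver expression, had 2.81 in M8/F8, 4.17 in M8/M3 and 1.17 in F8/F3. The probe named Pax2, for a kidney transcription factor, was nearest to Mup2 (0.42) and Mup4 (0.46). Sncg was nearest to Mup3 and Mup6, and Mrgpre to Mup21 (0.48).

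Genes of other abundant secreted hepatocyte proteins had log2 ratios of -0.79 to 0.60 in M8/F8. Of 28 genes for abundant plasma proteins such as albumin and transthyretin, 0 were called higher and 1 lower in M8/F8 (Ahsg, log2 -0.79). Of all probes 1.66% were called higher and 2.06% lower there, and the median of the 28 genes was -0.11. In M8/M3 3 of the 28 were called higher and 2 lower (5.29% and 5.5% of all probes), with a median of -0.10. In F8/F3 1 was called in each direction (3.51% higher and 3.65% lower of all probes), with a median of 0.02. Alb, the gene of albumin, had log2 ratios of -0.01 and -1.13 on the arrays of M8/F8. Of 21 other lipocalins with a probe, 15 were bright enough to be called in at least 1 comparison. Obp2a, an odorant-binding protein, was the only one called higher in M8/F8 (1.66% of all probes were), with log2 ratios of 4.33 and 4.48. Its M8/M3 ratios were 4.27 and 4.95. Obp2a did not share the female rise, at -1.23 and -0.18 in F8/F3. Orm3, an acute-phase glycoprotein, was the only one called lower in M8/F8 (-2.10).

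Of 15 textbook male-biased liver genes with a probe, 12 were called higher and 1 lower in M8/F8, against 1.66% and 2.06% of all probes. The list was chosen for known adult male bias, so this count is no independent result. Cyp4a12a and Cyp4a12b, fatty acid hydroxylases, had the largest log2 ratios, 4.77 and 4.05, and Lifr was at -0.64. The M8/M3 median of the 15 genes was 2.25, with 12 called higher (5.29% of all probes were). Their F8/F3 median was -0.08 with 0 called, where 3.51% of all probes were called higher and 3.65% lower. The Mup probes had an F8/F3 median of 1.72 with 9 of 9 called. The 5 genes nearest to the mean Mup profile were also above 0 in F8/F3. Their log2 ratios were 1.40 for Sncg, 1.92 for Cryaa, 1.62 for Rhox2e, 1.17 for Cyp7b1 and 1.18 for Gm5591. They were picked by likeness to Mup over all arrays, F8/F3 included.

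Of 27 genes of growth hormone signalling and liver transcription control, 0 were called higher and 6 lower in M8/F8, against 1.66% and 2.06% of all probes. Cux2, a female-biased repressor, had the largest difference, at -4.98, and was already at -3.07 in M4/F4 but at -0.20 in M3/F3. Tox, an HMG-box factor that is also female-biased, was at -2.78. Their M8/F8 median was -0.13. Of 6 measured genes for reception of Mup pheromones and for protein uptake in the kidney, 5 were bright enough to be called in at least 1 comparison. In M8/F8 0 of the 6 were called. Of 4 markers of salivary and lacrimal gland tissue, which also makes Mup proteins, only 2 were bright enough to be called in at least 1 comparison. Of the 4, 0 were called in M8/F8 and 1 was called lower in M8/M3 (Smr2, -0.61), where 5.5% of all probes were.

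The neighbours of the cluster were measured as well. Of Inip, Snx30 and Slc46a2 before Mup4 and Zfp37, Slc31a2 and Fkbp15 after Mup21, chosen by position after the Mup values were seen, log2 ratios ran from -0.70 to 0.43. In 42 tests 1 was called, Zfp37 as lower in F8/F3, where 3.65% of all probes were called lower. Slc46a2 had a log2 ratio of 0 in M3/F3, M8/F8, M8/M3, F8/F3 and F8/F4.

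Most markers of blood cells that were called with age were called lower at 8 wk. All 5 neutrophil markers were called lower in M8/M3 (-3.15 to -1.76, median -2.20) and in F8/F3 (-2.96 to -2.28, median -2.71), where 5.5% and 3.65% of all probes were called lower. The same held for 3 of 6 erythroid markers in each, and in bulk RNA fewer cells and less RNA per cell cannot be told apart. A further erythroid marker, Alas2, the first enzyme of haem synthesis in red cells, was called higher in M8/M3 (1.37) and in M8/F8 (1.89). Of 6 Kupffer cell markers, 4 were called lower in M8/F8 (median -0.62), against 2.06% of all probes. Hepatocyte markers had a median of -0.14 for M8/F8, one of 0.16 for M8/M3 and one of 0.01 for F8/F3, with 9 of 9 above background. The part of these cells in the Mup results was not tested. As a check of the labels, Xist was at -5.10 to -6.67 and Ddx3y at 5.80 to 7.24 on the 6 sex arrays.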

How the data were processed

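Log10 ratios of red over green, raw spot intensity and processed intensity were deposited by the authors as Feature Extraction 10.7.1.1 output. Local background had been subtracted and dyes balanced within the array by a linear and a LOWESS step. The error of each log10 ratio was deposited as a score that the software modelled. The deposited series table held the same log10 ratios (largest difference 0). Here ratios were turned to log2 male over female or older over younger by the dye in the labels. The 44397 spots per array held 43020 that were not controls, of which 55.2% to 77.2% per channel were well above background. Non-uniform spots were left out, 0 to 10 per array. The number of arrays limits the precision.

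limma 3.58.1 in R 4.3.3 was fitted to all 14 arrays with 7 comparison coefficients and 1 dye term. P-values were adjusted by Benjamini-Hochberg over all probes and comparisons, or over all probes within each interaction. The fit was tested on simulated data with independent arrays, a setting that does not cover pools shared between arrays. All member probes are named, beside the 5 genes nearest to the mean Mup profile (by root mean square difference), 1 for each member, and at most 2 genes per list and direction called in M8/F8, each by its brightest probe. Members, lists and tests were chosen with earlier results of these data known.

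The 14 arrays lay on 4 slides, 1 per replicate number and scan day, and each comparison was scanned on 1 of 2 days, so that day and comparison cannot be told apart. Same-numbered arrays shared pools: the replicate difference of the sex arrays correlated with that of the age arrays over 21650 probes (r = 0.882 for the 3 wk and 0.878 for the 4 wk loop).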

Additional observations from a re-analysis of the deposited data

Results flagged for a closer look

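The rise from 3 to 8 wk differed between males and females, by a test of the difference itself, for 4 of the 9 Mup probes. The male minus female log2 difference was 3.26 for Mup20 (A_55_P2063654), 3.40 for Mup20 (A_55_P2051486), 2.49 for Mup5 and 1.97 for Mup21. From 4 to 8 wk it was 2.66 for Mup20 (A_55_P2063654). Each was above 0 in both pool sets. M8/M3 and F8/F3 were scanned on different days, so from 3 to 8 wk sex and scan day cannot be told apart. None was called when the pools shared between arrays were included in the covariance.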

How the results depend on the processing

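Under the alternatives that left out no array, 7 to 9 probes were called in M8/F8 and in both male age comparisons, and 6 to 9 in both female ones, all upwards (with the lead probe of each gene only, 7 of 7). Of 1377 single-probe values under an alternative, 1234 kept direction and side of the threshold, 105 lost a call, 29 gained one and 9 changed sign. All 9 were in M3/F3 and none was called. With 6 group means the log2 ratio became 0.12 for Mup3, 0.05 for Mup20 (A_55_P2063654) and 0.14 for Mup21. Without M3/F3 array 1 or array 2 it was 0.64 or -0.66 for Mup3, 0.04 or -1.36 for Mup4 (A_55_P2010093), 0.03 or -1.63 for Mup5, 0.28 or -0.88 for Mup6, 0.36 or -0.77 for Mup20 (A_55_P2063654) and 0.53 or -0.56 for Mup21. The cause of these changes and of those below was not tested. Leaving out 1 array gave 0 to 5 called probes in M3/F3, 0 to 8 in M4/F4, 7 to 9 in M8/F8, 9 in M8/M3, 8 to 9 in M8/M4, 0 to 9 in F8/F3 and 1 to 9 in F8/F4. It gave 1 to 8 for M8/M3 minus F8/F3 and 0 to 2 for M8/M4 minus F8/F4. With deposited errors as weights and an unadjusted p under 0.0001, 5 probes were called in M3/F3 (all lower in males) and 9 in M4/F4. In M4/F4, 6 were called with 6 group means, 1 with shared pools in the covariance and 0 with p adjusted within the comparison. For M8/M3 minus F8/F3, 9 were called with 6 group means and 0 with shared pools. For M8/M4 minus F8/F4, 4 were called with 6 group means and 0 with no dye term, with the slide as a block or with shared pools. Median centring of background-subtracted signals with no intensity-dependent step, chosen after seeing the data, left 0 called in M4/F4, 2 for M8/M3 minus F8/F3 and 0 for M8/M4 minus F8/F4. The replicate block ended 2 calls, that of Mup5 for M8/M3 minus F8/F3 (adjusted p = 0.0555) and that of Mup20 (A_55_P2063654) in M4/F4 (adjusted p = 0.0651), and changed no other call of the 9 probes. Having 2 arrays per comparison limits all ratios. Mup2 was at or above 90% of saturation on 3 arrays, and the part of this in its ratios was not tested.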
